A study of Mus musculus with 3 samples.

Results

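The E proteins and the Id proteins of mouse regulatory T cells are described here at the level of messenger RNA. The 6 genes were chosen by name, as the rows of the gene tables called Id1, Id2, Id3, Tcf3, Tcf4 and Tcf12, and were all found among 55536 annotated genes, of which 22028 are protein-coding. The study sequenced polyA-selected RNA of regulatory T cells that had experienced inflammation, primary cells of a male adult mouse of 16 weeks. The strain is Foxp3GFP-DTRCD4CreERT2R26tdTomato, whose name carries GFP with the diphtheria toxin receptor at Foxp3, a tamoxifen-activated Cre recombinase named for CD4, and a tdTomato reporter at Rosa26. The 3 libraries form 1 group and share all of this. They are technical replicates 1, 2 and 3 of 1 biological replicate, called library 1, library 2 and library 3. No untreated or other control group is among them, so no effect of inflammation can be read from these values, and every spread and p-value below is between libraries of the same cells.

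E proteins are transcription factors of the basic helix-loop-helix class. They bind DNA as pairs at E boxes, sites with the letters CANNTG, and in lymphocytes they drive the genes of early development and restrain maturation. Id proteins have the helix-loop-helix but lack the basic region that touches DNA, so an Id protein holds an E protein in a pair that cannot bind. In T cells Id2 and Id3 are the main inhibitors, and in regulatory T cells they are known to keep the cells from turning into follicular-type cells. The 3 E protein genes are Tcf3, which makes E12 and E47 by choice of exon, Tcf12, which makes HEB, and Tcf4, which makes E2-2, a factor best known from plasmacytoid dendritic cells and B cells.

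Inhibitor transcripts outnumbered those of E proteins in each library. Levels are given in TPM, a share of all transcripts scaled for transcript length and depth, so it can be compared between genes. The summed TPM of Id1, Id2 and Id3 was 354 in library 1, 388 in library 2 and 417 in library 3. The summed TPM of Tcf3, Tcf4 and Tcf12 was 69.0, 70.3 and 38.8 in the same order. Id transcripts were thus 83.7%, 84.7% and 91.5% of the total, 86.6% ± 4.24 (SD, n = 3 libraries), and the Id sum was 5.13, 5.51 and 10.7 times the E protein sum. Library 3 stood apart from the other libraries in this balance, with the lowest E protein sum and the highest Id sum. On the second deposited gene table, which uses GENCODE M4 in place of M21, the Id percent was 72.1 ± 9.91 per kilobase of effective length, and on expected counts not scaled for length it was 74.3 ± 7.63.

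Id3 led the 6 genes at 207 ± 14.4 TPM (SD, n = 3), rank 729 of the 22028 protein-coding genes. The Id3 gene (ENSMUSG00000007872.3) spans chr4:136143497-136145755 on the plus strand (mm10), and its TPM was 218, 191 and 213 in libraries 1, 2 and 3. Id2 followed at 179 ± 36.9 TPM, rank 881, from chr12:25093799-25097140 on the minus strand (ENSMUSG00000020644.9). Its TPM was 137, 197 and 203, so library 1 was low and libraries 2 and 3 lay close together. The log2 ratio of Id3 to Id2 on the TPM + 1 scale was 0.23 ± 0.38 and changed sign in library 2, so the order of these neighbours was not larger than their spread. Neighbours in the order of levels were said to differ where that ratio had 1 sign in all libraries and its mean exceeded 2 SD.

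Id1, an inhibitor linked to BMP signals in many tissues, was at or near the limit of detection. Its counts were 2, 4 and 0, which gave 0.17, 0.38 and 0 TPM, and 3 counts in library 3 would have been 0.251 TPM. The second gene table listed it at 0 in all 3 libraries. Id1 (ENSMUSG00000042745.9) lies at chr2:152736251-152737410 on the plus strand, and by mean TPM it ranked 12758. The fourth Id gene, Id4, was at 0.02, 0.02 and 0.07 TPM, so the Id transcripts measured here came from Id2 and Id3.

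By TPM, Tcf12 led the E protein genes at 33.3 ± 5.97 TPM, rank 4531. Its TPM was 36.2, 37.3 and 26.4, lowest in library 3, and the gene (ENSMUSG00000032228.16) spans chr9:71842688-72111871 on the minus strand. Tcf3 (ENSMUSG00000020167.14, chr10:80409514-80433647, minus strand) was at 25.9 and 25.3 TPM in libraries 1 and 2 and at 4.98 in library 3, which gave 18.8 ± 11.9 and rank 6123. Tcf4 (ENSMUSG00000053477.17, chr18:69343356-69689079, plus strand) was at 6.87, 7.75 and 7.44 TPM, the steadiest of the 6 genes, and ranked 8147. In the order Id3, Id2, Tcf12, Tcf3, Tcf4, Id1, only Id2 over Tcf12 (log2 ratio 2.39 ± 0.51) and Tcf4 over Id1 (2.83 ± 0.22) passed the rule. Tcf12 over Tcf3 (1.07 ± 0.98) and Tcf3 over Tcf4 (0.96 ± 1.26) did not, and the latter pair was reversed in library 3. Without library 3 both passed, at 0.50 ± 0.05 and 1.68 ± 0.13. On the second gene table per kilobase the order was Id2, Id3, Tcf3, Tcf12, Tcf4, Id1. There the step from Id to E protein genes, Id3 over Tcf3, did not pass (1.76 ± 1.34), and Tcf12 over Tcf4 (1.57 ± 0.78) and Tcf4 over Id1 did. Tcf3 lay above Tcf12 there in libraries 1 and 2 (0.28 and 0.22) and below it in library 3 (-1.05). Within the E protein sum, Tcf12 made up 52.4%, 53.0% and 68.0%, Tcf3 37.6%, 36.01% and 12.8%, and Tcf4 9.96%, 11.0% and 19.2%. In bulk RNA, fewer cells with a transcript and less transcript per cell cannot be told apart.

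**Figure D1:**
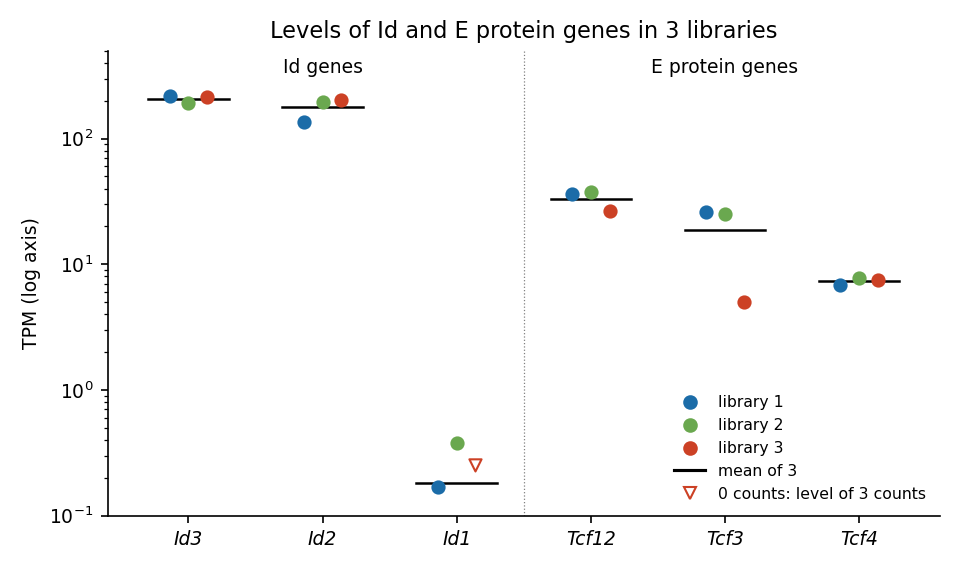
TPM of each gene on a log axis, 1 point per library and a line at the mean of 3 libraries. Id3 and Id2 lie above all E protein genes, Tcf3 in library 3 sits at 4.98 TPM against 25.9 and 25.3 in the other libraries, and the open triangle for Id1 in library 3 marks the level that 3 counts would give, since its count was 0.

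The labelled cell type was checked against its markers. All 6 T cell markers and all 6 regulatory T cell markers were above 1 TPM in every library, with Foxp3, the factor that defines these cells, at 77.6, 86.2 and 59.2 TPM. The 8 B cell markers summed to 90.0, 92.1 and 110 TPM, with Pax5, the factor that defines B cells, at 0.35, 0.9 and 0.48 TPM. The 6 markers of plasmacytoid dendritic cells summed to 189, 176 and 154 TPM, of which Bst2 and Pacsin1 gave most, while Siglech, the defining one, was at 0.37, 0.36 and 0.6. Both cell types are known for high Tcf4, and their part in the Tcf4 level was not tested. The 5 erythroid markers summed to 810, 616 and 1018 TPM, nearly all from the globin genes Hbb-bs and Hba-a1. The 5 macrophage markers summed to 43.4, 44.2 and 32.3 TPM, the 5 NK and innate lymphoid markers to 7.09, 11.4 and 18.6, and the 5 thymocyte markers to 1.83, 2.99 and 3.28. The 5 stromal or endothelial markers summed to 93.9, 113 and 108, nearly all from Pecam1.

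The libraries differed in these genes by more than counting error. Each gene with a mean of at least 10 expected counts was compared with Poisson sampling by a chi-square test on counts scaled by edgeR's TMM factors, adjusted over all genes tested by the Benjamini-Hochberg method. All 5 of the members that could be tested passed an adjusted p of 0.05. So did 63.9% of the 14877 genes tested, and the count of members is read against that share. Since reads carry no molecular identifiers and may be copies of 1 molecule, this test and the level that 3 counts give cover counting error only. Of the genes tested, 34.1% passed and were lower in library 3 than in the mean of libraries 1 and 2, and 29.7% passed and were higher. On scaled counts against that mean, Tcf3 and Tcf12 were lower, and Id2, Id3 and Tcf4 were higher by a log2 of 0.31, 0.08 and 0.52. In TPM, library 3 lay below library 1 for Id3 (213 against 218) and below library 2 for Tcf4 (7.44 against 7.75). The test covers the 3 libraries at once, so these directions are a description.

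Tcf3 was furthest apart. Its expected counts were 864, 783 and 150, and library 3 was 5.16-fold lower than the mean of the other libraries after scaling (log2 -2.37, adjusted p 6.25e-100 in the chi-square test). Libraries 1 and 2 lay together and library 3 far below them. The coefficient of variation of its TPM was 63.6%, where counting alone would give 4.09%. The second gene table had Tcf3 at 557, 503 and 97 counts, the same order. Only 13 of 9305 protein-coding genes with at least 100 counts lay further down in library 3 than Tcf3.

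Tcf12, with 1496, 1293 and 860 expected counts, was 1.53-fold lower in library 3 (log2 -0.61, adjusted p 3.59e-26). Leaving library 3 out ended the calls of Tcf3 (adjusted p 0.885), Tcf12 (0.532) and Tcf4 (0.629). Id2, with 2102, 2803 and 2904 expected counts, differed through library 1 (adjusted p 3.56e-59 over 3 libraries and 0.266 without library 1). Id3, with 3411, 2736 and 3057, had a TPM that varied by 6.97% where counting gives 1.81%, and without library 2 the call was lost (adjusted p 0.940). Tcf4 had 176, 145 and 217 expected counts and passed the test (adjusted p 0.000362), while its TPM varied by 6.07%, below the 7.47% of counting. The 2 measures part because the effective length that the deposited table gives Tcf4 changed with the mix of its transcripts, at 1966, 1561 and 2437 bases. On the second gene table the calls of Id3 (adjusted p 0.753) and Tcf4 (0.160) were lost, and those of Id2, Tcf3 and Tcf12 stood.

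The base composition of the members is given beside these values, since library 3 differed from the other libraries along it. Local GC content was taken as the GC percent of the most GC-rich 200-base stretch in the transcript with the highest level. It was 78.0% for Tcf3 and 75.0% for Tcf12, above 91.3% and 84.6% of the protein-coding genes tested, whose median was 65%. Id2 had 61.5%, Tcf4 62.5%, Id3 67.5% and Id1 68.5%. Over protein-coding genes with at least 100 counts, the median log2 difference of library 3 was 0.17 at a local GC content below 55%, 0.08 from 60% to 65% and -0.77 from 70%. Within the class from 70% the fall was not steady. Along a fitted trend the log2 difference was lowest, at -0.84, close to the local GC content of Tcf12. It was -0.64 at the 78.0% of Tcf3 and rose to 0.59 at the highest local GC content. The fitted trend gave Tcf12 a 1.78-fold lower value, more than the 1.53-fold measured, and Tcf3 a 1.56-fold lower value, less than the 5.16-fold measured. Of the 443 genes within 1 percentage point of Tcf3 in local GC content, 3 lay further down, with a median log2 difference of -0.84 and a range from -2.73 to 0.51. Of the 595 genes as close to Tcf12, 455 lay further down than Tcf12, with a median of -1.19, so the smooth trend lies above the median of genes of like composition at both values. With the trend taken out all 5 members still passed the test, Tcf3 at an adjusted p of 6.00e-48 and Tcf12 at 0.00101. So did 58.9% of all genes tested, and the count of members is read against that share. The shift is seen in a single library, and the part of base composition in the fall of Tcf3 was not tested beyond this.

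**Figure D2:**
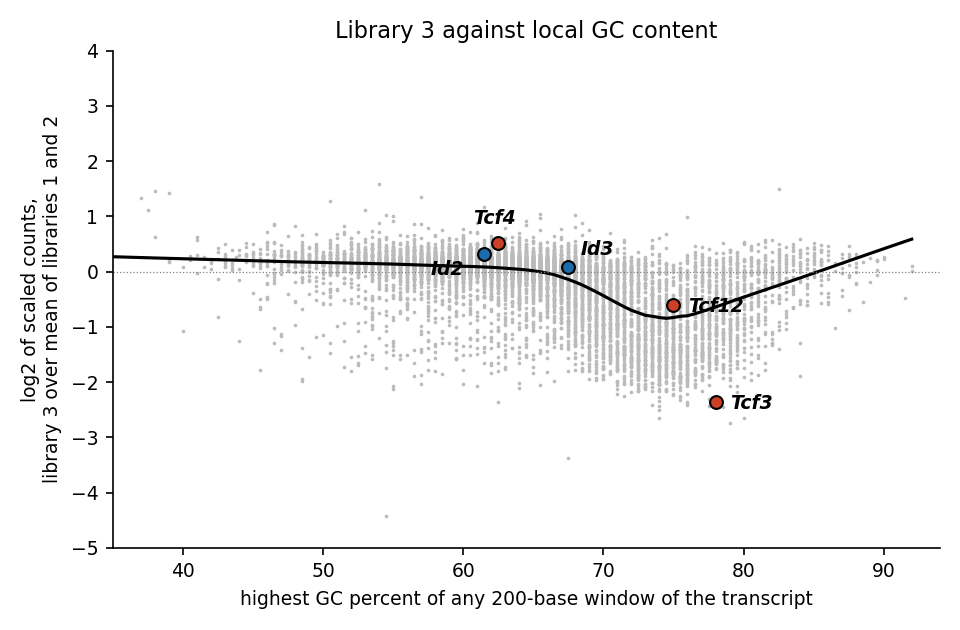
Each grey point is a protein-coding gene with a mean of at least 100 counts, placed by its local GC content (percent) and by the log2 of its scaled counts in library 3 over the mean of libraries 1 and 2; the black line is the fitted trend, red points are E protein genes and blue points Id genes, and 3 genes lie outside the axes. Tcf3 lies at -2.37, far below the line, while Tcf12 at -0.61 lies slightly above it.

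The exons that tell E12 from E47 are shown because the share of each form was measured from them. Both are coding exons of Tcf3 that encode the basic helix-loop-helix region, no transcript is counted to both, and they differ in the basic region and the helices. The E12 exon is at chr10:80412827-80413062 (236 bases) and the E47 exon at chr10:80410398-80410624 (227 bases), both on the minus strand of mm10, written 5′ to 3′ as transcribed. Capitals mark the 30 bases that differ over the last 169 bases of each, aligned from the exon ends without gaps, of which 82.3% are identical.
E12: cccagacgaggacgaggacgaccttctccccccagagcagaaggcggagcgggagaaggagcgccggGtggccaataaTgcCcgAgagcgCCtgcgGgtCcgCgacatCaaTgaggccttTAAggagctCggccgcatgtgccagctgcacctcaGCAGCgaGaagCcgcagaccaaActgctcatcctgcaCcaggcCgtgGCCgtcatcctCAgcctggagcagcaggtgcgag
E47: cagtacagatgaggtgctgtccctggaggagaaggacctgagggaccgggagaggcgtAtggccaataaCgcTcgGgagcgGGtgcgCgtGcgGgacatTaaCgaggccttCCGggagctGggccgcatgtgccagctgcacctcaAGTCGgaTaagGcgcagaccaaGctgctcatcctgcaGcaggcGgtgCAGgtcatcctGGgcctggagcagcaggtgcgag

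Most Tcf3 transcript was of the E47 kind. Of the gene's TPM, the 7 annotated transcripts with the E47 exon held 66.1%, 64.4% and 59.2% in libraries 1, 2 and 3, 63.2% ± 3.57 (SD, n = 3). The 5 with the E12 exon held 25.5%, 31.0% and 26.7%, 27.8% ± 2.90, and 2 transcripts with neither held 8.37%, 4.62% and 14.1%. The ratio of E47 to E12 was 2.59, 2.07 and 2.22 (2.29 ± 0.27), and the E47 form was higher in all 3 libraries. In TPM, the E47 form was at 17.2, 16.3 and 2.95 and the E12 form at 6.62, 7.86 and 1.33, so both forms were low there and their ratio lay between those of libraries 1 and 2. Library 3 gave 100.9 expected counts to the E47 form and 46.0 to E12. The leading transcript, Tcf3-209 with the E47 exon, held 41.7% ± 5.73. Its lead depends on the estimate. Its TPM was 11.2, 8.97 and 2.32, while its posterior mean in the authors' deposited table was 5.95, 4.61 and 0.73. The upper interval bounds there, 10.25, 8.01 and 1.61, lay below its TPM in each library. That is not particular to Tcf3-209. Id2-201 and Id3-201 also had TPM above the upper bound in each library, in library 1 at 119 against 112 and 208 against 192. Tcf3-206, with the E12 exon, held 20.9% ± 5.63. The further E47 transcripts Tcf3-202 and Tcf3-208 held 5.04%, 22.1% and 0% and 12.1%, 0% and 7.74%, each at 0 in some library, as shares of overlapping forms are estimates of a model. Tcf3-213, a short form with neither exon, held 5.41% ± 7.47, and its posterior mean in library 3 was 0.87 TPM, above that of Tcf3-209.

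Tcf12 transcripts differed in library 3 by their start. They were grouped by annotated start after their shares had been seen. The distal start opens the full-length form, HEBCan, and an internal start opens HEBAlt, a shorter form known from early T cell development that begins with an exon of its own. The 13 transcripts with the distal start held 70.6%, 68.3% and 34.6% of the gene's TPM, the 4 with the internal start 12.9%, 12.4% and 33.7%, and the 4 with other starts 16.5%, 19.3% and 31.8%. In TPM the distal group was at 25.5, 25.5 and 9.13, the internal group at 4.65, 4.63 and 8.89 and the group of other starts at 5.98, 7.18 and 8.39. In library 3 the distal group included Tcf12-212 (3.76 TPM) and Tcf12-219 (1.74), which retain an intron, and Tcf12-211 (1.13), marked for nonsense-mediated decay. The internal group included forms of both kinds, at 0.88 and 0.91 TPM. The groups are therefore not measures of HEBCan and HEBAlt alone. Of protein-coding TPM, the distal start held 47.5% ± 26.9 and the internal start 26.8% ± 17.8. Libraries 1 and 2 lay close together, and library 3 was lower for the distal start and higher for both other groups. The leading distal transcript, Tcf12-201, had a posterior mean of 7.92, 4.76 and 0.54 TPM in the authors' deposited table, with interval bounds of 4.83 to 10.5, 1.76 to 7.57 and 0.000043 to 1.48. That of library 3 did not overlap the others.

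Tcf12-207, the main internal-start transcript, had 3.32, 3.10 and 5.73 TPM by the same measure. The intervals of library 1 (2.00 to 4.72) and library 2 (1.78 to 4.52) both overlapped that of library 3 (4.49 to 6.96). The local GC content was 75.0% for Tcf12-201 and 55.5% for Tcf12-207. Since internal-start transcripts share most exons with distal ones, these shares are estimates of a model, and the part of base composition in them was not tested. Tcf12-209, a short form with another start, held 14.8% ± 5.17. Tcf12-212 and Tcf12-219, which retain an intron, held 13.0% ± 1.08 and 7.20% ± 0.72, and Tcf12-211, marked for nonsense-mediated decay, 7.39% ± 3.39. Protein-coding transcripts made up 57.7% of Tcf12 TPM on average, against 91.8% for Tcf3.

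The bases ahead of the distal Tcf12 start are shown because the share of that start was lowest in library 3. They are the part of RefSeq's 250-base promoter window (GRCm38.p6, the mm10 assembly) that lies before every annotated Tcf12 exon, at chr9:72111872-72112069 on the minus strand, and capitals mark a CANNTG match.
Tcf12 distal: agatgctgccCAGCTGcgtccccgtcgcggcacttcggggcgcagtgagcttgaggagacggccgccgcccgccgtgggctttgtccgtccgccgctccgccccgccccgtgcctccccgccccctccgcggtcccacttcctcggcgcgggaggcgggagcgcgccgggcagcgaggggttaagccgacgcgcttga

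The whole window had a GC content of 76.8%, against 34.8% in RefSeq's window for the internal start at chr9:71896097-71896346. The median was 52.4% over 32851 windows of the same length. All 250 bases of the internal window lie in annotated exons, against 52 bases of the distal window. Tcf12-207 begins upstream of the internal window, at chr9:71896396. The internal window is thus annotated transcript, and the windows are unlike in this respect. Only 5.0% of windows had a GC content as low as the internal one. A second RefSeq window for the distal region, at chr9:72111202-72111451, had 78.0%. Each distal window held 1 CANNTG and the internal window none, and 66.2% of all windows held at least 1 (either strand reads the same, since the motif is its own reverse complement in form). CAGCTG, the match in the first distal window, was found in 13.0% of all windows. A match is a description of letters and no site.

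**Figure D3:**
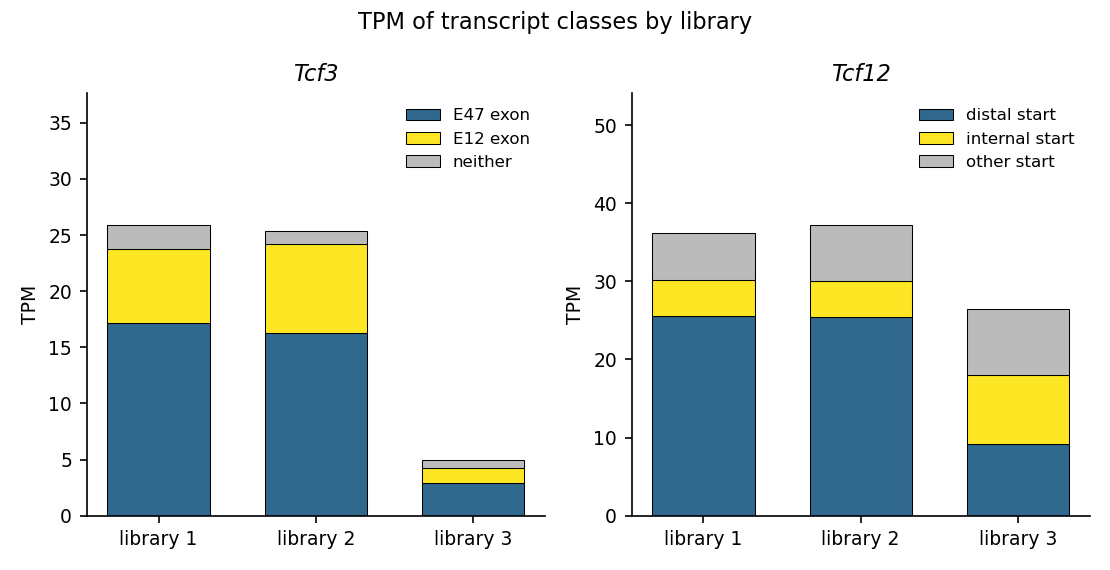
Stacked bars give the TPM of transcript classes in each library, for Tcf3 by the exon held (E47, E12 or neither) and for Tcf12 by annotated start. All Tcf3 classes are lowest in library 3 (E47 2.95 and E12 1.33 TPM), while in Tcf12 the distal start is at 9.13 TPM there and the internal start at 8.89. Both Tcf12 classes include transcripts that are not protein-coding.

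Tcf4 was spread over many transcripts. Of 62 annotated, 28 had a count in some library and 7 were above 0 TPM in each. Tcf4-257 led on average at 17.1% ± 13.7, with 30.2%, 2.82% and 18.2%, so no transcript led in all libraries. This lead depends on the estimate. Its posterior mean was 0.24, 0.12 and 0.22 TPM, below that of Tcf4-210 (0.61, 0.66 and 0.85) in each library. Its TPM of 2.08 in library 1 and 1.35 in library 3 lay above the upper interval bounds of 0.70 and 0.64, a side on which Id2-201 and Id3-201 lay too. Tcf4-210 was steadier at 10.7% ± 1.14, while Tcf4-259 (0%, 24.1%, 2.48%), Tcf4-232 (6.45%, 17.6%, 0%) and Tcf4-254 (0%, 2.75%, 17.5%) each had 0 in some library. The gene total depends on the estimate too: the posterior mean of the authors' deposited table put Tcf4 at 12.1, 12.9 and 13.8 TPM. Id2 and Id3 came almost wholly from 1 transcript each, Id2-201 with 89.1% ± 1.59 and Id3-201 with 95.0% ± 0.65, and Id2-203 held 10.8% ± 1.63.

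No annotated gene overlaps Id1, Id2, Id3 or Tcf3. Tcf12 is overlapped by 11 annotated genes, all at 0.1 TPM or more in some library and 4 on the opposite strand. The highest were unconfirmed transcribed regions on the same strand, Gm37663 (2.49, 4.27 and 7.72 TPM), Gm38111 (3.96, 4.28 and 6.70) and Gm37137 (2.83, 5.04 and 6.41), all highest in library 3, where Tcf12 was lowest. Gm37879 had 3.39, 4.33 and 3.95 TPM. Gm38057, A430027C01Rik, Gm37023, Gm18821, Rpl15-ps2, Gm27152 and Gm27450 had at most 3.75 TPM. Reads from these and from Tcf12 introns may be split in either way by the counting, so the Tcf12 level is uncertain in this respect. No other member is overlapped by a gene at 0.1 TPM or more.

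The genes closest to Tcf3, Id2, Tcf4 and Id3 in pattern over the 3 libraries were named by the smallest distance between log2 deviations, among 9309 protein-coding genes with at least 100 counts. For Tcf3 it was H2afx (26.7, 27.5 and 5.28 TPM), with 7 genes within a distance of 0.1. For Id2 it was Slc7a1, with 38 such genes, for Tcf4 Timm10 with 55 and for Id3 Rab3gap1 with 1314. With 3 technical libraries a near pattern says only that the libraries moved alike.

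The genes around E and Id proteins were read from lists, 74 genes in all. Of these, 42 were at 1 TPM or more in every library and 11 had no count in any, and the median was 3.63 TPM, against 0.888 over all protein-coding genes. Of the 48 that could be tested, 38 passed the test between libraries, 23 lower and 15 higher in library 3, beside 63.9% of all genes tested. Without library 3, 21 of 48 passed, beside 30.2% of all genes. The counts of each list below are read against the 63.9% over all genes and show nothing particular to a list.

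Tissue-specific partners of E proteins, the factors that pair with them to direct one lineage, were nearly absent. Of 16, 1 was detected and 9 had no count. That one was Ascl2, a factor known from follicular helper T cells, at 2.53, 2.25 and 1.07 TPM. It passed the test as lower in library 3 (adjusted p 0.0118). Lyl1 (0.387 ± 0.0839), Msc (0.130 ± 0.184) and Scx (0.0667 ± 0.0231) were the next highest by mean TPM.

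Of 8 repressors that compete for E boxes, 3 were detected. Zeb1, a zinc finger repressor, was at 53.6, 51.0 and 59.0 TPM and Bhlhe40 at 45.8, 39.1 and 45.7, both above the TPM of each E protein gene in all 3 libraries. Zeb2 (2.84 ± 0.72 TPM) and Hey1 (1.52, 0.35 and 0.26 TPM) were low. Of the 5 that could be tested, 3 passed, Hey1 lower and Zeb1 and Bhlhe40 higher in library 3 than in the mean of libraries 1 and 2. For Bhlhe40 that log2 difference was only 0.06, with library 2 lowest and libraries 1 and 3 close together.

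Of 11 cofactors, 8 were detected, and 7 of 9 tested passed, 5 lower and 2 higher in library 3. The acetyltransferase Ep300, which E proteins recruit, was at 27.3, 30.4 and 35.5 TPM, and Kat2a, another, at 40.7, 41.9 and 12.6. The adaptor Ldb1 was at 33.9, 36.9 and 27.8 TPM and Runx1, a partner at T cell enhancers, at 26.6, 32.7 and 14.5. Lmo2, Cbfa2t3 and Runx1t1, known from blood stem cells and leukaemia, were below 1 TPM in each library.

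Of 12 genes upstream of Id genes, 9 were detected, and 9 of 11 tested passed, 6 lower and 3 higher in library 3. The TGF-beta receptor genes were at 134, 129 and 41.8 TPM (Tgfbr2) and 63.2, 52.6 and 32.7 (Tgfbr1). Egr2, a factor induced by the T cell receptor, was at 57.1, 41.5 and 51.8 TPM, and Egr1 at 28.1, 24.1 and 7.55. The BMP receptor genes were low: Bmpr2 was at 1.09, 0.81 and 1.24 TPM, Bmpr1a at 0.410 ± 0.0985 and Acvr1 at 0.0867 ± 0.0643.

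All 8 genes of protein turnover were detected, and 7 passed, 5 lower and 2 higher in library 3. Cops5, a signalosome subunit, was at 89.2 ± 4.31 TPM and did not pass (adjusted p 0.120). Stub1 (100.8, 99.7 and 23.0 TPM) and Wdr48, the partner of the deubiquitinase Usp1 that acts on Id proteins (63.1, 63.2 and 38.2), were lower in library 3. Huwe1, a ubiquitin ligase, was at 45.9, 53.0 and 55.8 TPM.

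Of 14 genes known to be controlled by E proteins in lymphocytes, 10 were detected. Cd4 (266 ± 27.5 TPM), Il7r, the IL-7 receptor (243 ± 36.7), and Cxcr5, the follicular homing receptor (124, 92.6 and 144 TPM), were the highest. Those of immature lymphocytes were at or near 0, with Rag2 and Igll1 at no count and Rag1 and Ptcra seen in library 3 alone, at 0.04 and 0.14 TPM. Socs3, a brake on cytokine signals, was at 90.1, 57.9 and 15.8 TPM. Of the 10 tested, 8 passed, 4 in each direction.

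Genes of the HMG box TCF family bear similar symbols and are no E proteins: Tcf7l1 and Tcf7l2 have been called TCF3 and TCF4 as well. Tcf7 (181, 251 and 329 TPM) and Lef1 (211, 258 and 289) were far above Tcf3 and Tcf4 in every library, while Tcf7l1 (0.85, 1.33 and 0.2) and Tcf7l2 (2.09, 2.00 and 1.32) were low.

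**Figure D4:**
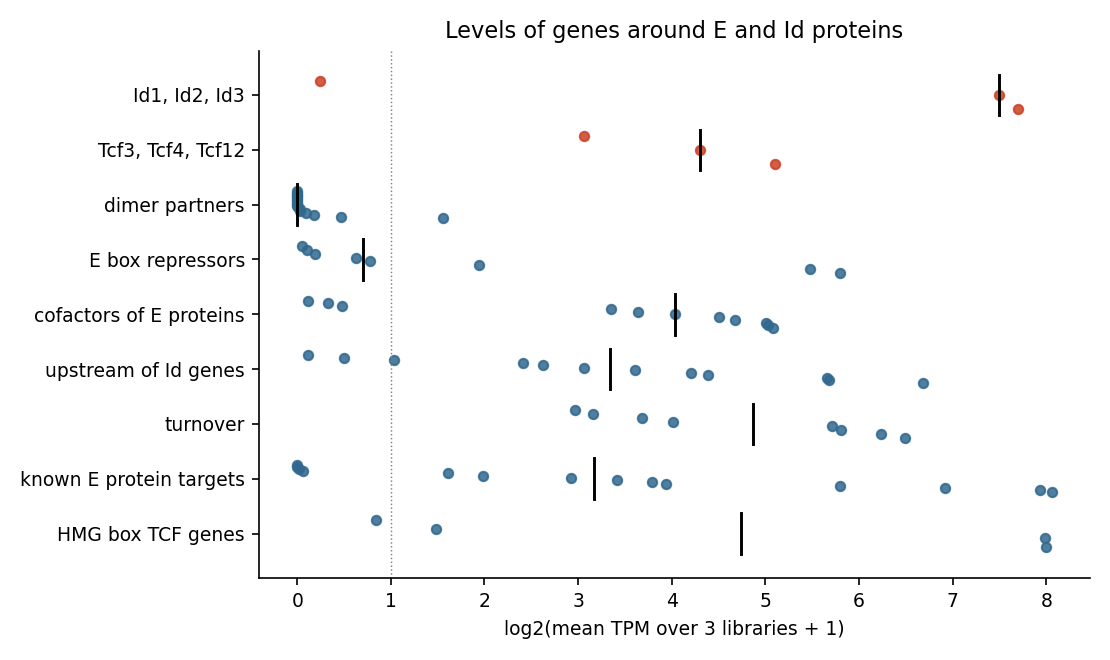
Each point is a gene, placed by log2 of its mean TPM over 3 libraries plus 1, in rows by list, with a black line at the median of each row and a dotted line at 1 TPM. Id2, Id3, Tcf7 and Lef1 are among the points furthest right, and 15 of the 16 dimer partners lie left of the dotted line.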

How the data were processed

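PolyA-selected RNA of 1 group was measured in 3 libraries, technical replicates 1 to 3 of 1 biological replicate, per the labels. Fragments were sheared on a Covaris instrument, per the labels. The authors deposited gene and transcript tables of expected counts, TPM, FPKM, posterior means and their intervals, with the percent of a gene's TPM in each transcript, per the file headers. Deposited text names mm10 and GENCODE M21 for them. A second deposited table holds whole-number counts for GENCODE M4. For aligner and counter, names and versions were not given in the sources used here. Library totals were 20942875, 18402479 and 17494966 expected counts in annotated genes and 6339932, 5775622 and 5056487 counts in the second table. Of the counts in the first table, the second held 30.3%, 31.4% and 28.9% over all genes, but 15.8% for Id3, 19.9% for Id2, 34.4% for Tcf12, 49.6% for Tcf4 and 64.4% for Tcf3.

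Expected counts were rounded and set against Poisson sampling by Pearson's chi-square with 2 degrees of freedom (scipy 1.17.1, edgeR 4.0.16 for TMM scaling, Benjamini-Hochberg adjustment), which was checked on simulated data. That check first asked for recovery over all genes, which failed, and was then limited to genes with a mean of at least 100 counts, so the test misses changes in genes of low count. DESeq2 1.42.0 gave other size factors. Trends on local GC content are lowess curves (fraction 0.3, statsmodels 0.14.6). Shares, levels and ratios have no test: 3 against 3 libraries could not go below an exact p of 0.1. Named genes are the 6 members, Id4 and the HMG box TCF genes, the 4 highest of each list with members under 1 TPM where there are 4 or fewer, transcripts of at least 5% of a gene's TPM, the nearest gene by pattern and overlapping genes from 0.1 TPM. One gene that this rule takes is not reported here. The members and lists were chosen with earlier results of these data known. Comparison by base composition within 1 percentage point, promoter windows and the grouping of Tcf12 transcripts were chosen after seeing the data. The exons of E12 and E47 were told apart by the known codon ahead of the shared basic region, and internal Tcf12 starts are those in the first exon of Tcf12-207, whose translated start is that known of HEBAlt.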

Additional observations from a re-analysis of the deposited data

How the results depend on the processing

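Scaling by DESeq2 size factors or by totals alone, other count minimums and removal of the trend on local GC content left the same 5 members past the threshold. Of all genes tested, 64.3% passed with DESeq2 size factors and 67.7% with totals alone. With a mean count of at least 50, 74.9% passed, and with the trend removed 58.9%. Without a filter on counts 30.2% passed, and Id1 was tested too and did not pass. The count of members is read against these shares. With counts of the second gene table, 6222 genes (56.7% of those tested) and 3 of 5 members passed. Leaving out each library gave 4489 to 8029 genes (30.2% to 53.9%) and 2 to 4 of 5 members. Of 47 to 48 pathway genes tested, 21 to 36 passed. The lowest counts came without library 3. The number of neighbours that differ was 1 among members at 1 TPM or more, where Id1 is not compared, and 2 to 4 when each library was left out. The Id percent was 74.3 on expected counts and 72.1 on the second gene table, and 84.5 on posterior mean TPM, a unit chosen after seeing the data. The share of Tcf3-209 was 47.5% on expected counts. The cause was not tested. Without library 3, the distal and internal starts of Tcf12 held 69.5% and 12.6% of TPM, against 57.8% and 19.6% over 3 libraries. No paired analysis was possible because there is 1 group. Depth limits Id1, at 0 to 4 counts, and the transcript shares of Tcf4 and of Tcf3 in library 3.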
